A study of Mus musculus with 9 samples.

Results

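The interferon response genes followed here are 32 genes that cells switch on when interferon reaches them, or that build the machinery of that response. They were taken by symbol from the deposited count table of aortic messenger RNA. All 32 were found among the 55453 genes listed, and all 32 were among the 19412 genes with enough counts to be tested.

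The RNA was that of 9 whole aortae, each from a C57BL/6J mouse, 3 mice for each genotype. Itga8-Cre animals have the Itga8-CreERT2 allele, a Cre recombinase that tamoxifen switches on and that is named for the integrin gene Itga8. Myh11-Cre animals have Myh11-CreERT2, a Cre of the same kind named for the smooth muscle myosin gene Myh11. Wild Type animals served as controls. Sex, age, treatment with tamoxifen, transgene copy number and batch are not in the labels, and all groups share the strain and the tissue. Libraries are called by genotype and mouse number, such as Itga8-Cre 2, and the labels do not say whether the numbers pair mice between genotypes.

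Interferons are secreted proteins that warn neighbouring cells of infection. Type I interferons act through the receptor chains Ifnar1 and Ifnar2 and the kinases Jak1 and Tyk2, which lead to a complex that holds Stat2 and Irf9 and binds a promoter motif called the interferon-stimulated response element. Interferon gamma, made mainly by lymphocytes, acts through its own receptor and another promoter motif, the gamma-activated site. In vessels these genes are kept at low levels by resident cells and by leukocytes of the wall and the surrounding fat, and they rise on viral or inflammatory stimuli.

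RefSeq promoter sequences (GRCm38.p6, 250 bases before to 50 after each start) were matched for 23 of the 32 members, with 27 promoters. Dhx58, Zbp1, Usp18, Oas2, Mx1, Mx2, Parp14, Ifi27 and Rtp4 were not matched. The core of the interferon-stimulated response element was searched on both strands as the letters GAAA, any 2 bases, and GAAA again. It was present in 13 of the 27 member promoters (48.1%), against 3.44% of the 32851 promoters of the same length in the table. The gamma-activated site was searched as TTCNNNGAA, which reads the same on both strands, and was present in 6 of the 27 member promoters (22.2%), against 8.3% of all promoters. Both motifs were found in 3 matched members and neither in 7. A match describes these letters only and is not evidence of binding.

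The upstream 250 bases of 6 promoters are shown because they place the motif beside the members described most closely. Gbp2, Gbp3, Stat2 and Igtp are the members with a match and the highest mean CPM, not divided by length, and Oas3 and Oas1a were added after their values were seen. Each sequence runs 5′ to 3′ in the direction of the gene and ends at the base before the start. Capitals mark matches to the response element letters or their reverse complement, and overlapping matches form a single run.
Oas3 (chr5:120777660-120777909, minus strand): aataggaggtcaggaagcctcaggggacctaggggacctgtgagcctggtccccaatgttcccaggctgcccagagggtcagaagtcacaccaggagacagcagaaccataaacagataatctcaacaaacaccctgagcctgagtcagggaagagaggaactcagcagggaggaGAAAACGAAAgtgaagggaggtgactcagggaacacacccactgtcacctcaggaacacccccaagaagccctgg
Oas1a (chr5:120907526-120907775, minus strand): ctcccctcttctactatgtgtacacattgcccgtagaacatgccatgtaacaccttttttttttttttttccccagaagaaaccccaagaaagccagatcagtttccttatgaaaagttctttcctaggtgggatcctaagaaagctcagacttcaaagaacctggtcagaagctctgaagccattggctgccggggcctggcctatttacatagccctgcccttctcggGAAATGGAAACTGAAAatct
Gbp2 (chr3:142620413-142620662, plus strand): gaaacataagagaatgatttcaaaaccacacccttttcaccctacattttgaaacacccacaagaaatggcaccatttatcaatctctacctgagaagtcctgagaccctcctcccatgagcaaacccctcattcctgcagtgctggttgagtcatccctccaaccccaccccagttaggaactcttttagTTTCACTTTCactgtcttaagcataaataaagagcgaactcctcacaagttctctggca
Gbp3 (chr3:142559794-142560043, plus strand): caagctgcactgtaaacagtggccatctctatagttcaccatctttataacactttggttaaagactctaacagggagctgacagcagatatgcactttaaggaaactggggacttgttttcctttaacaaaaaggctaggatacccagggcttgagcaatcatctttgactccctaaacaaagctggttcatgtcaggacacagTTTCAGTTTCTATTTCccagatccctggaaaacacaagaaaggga
Stat2 (chr10:128270248-128270497, plus strand): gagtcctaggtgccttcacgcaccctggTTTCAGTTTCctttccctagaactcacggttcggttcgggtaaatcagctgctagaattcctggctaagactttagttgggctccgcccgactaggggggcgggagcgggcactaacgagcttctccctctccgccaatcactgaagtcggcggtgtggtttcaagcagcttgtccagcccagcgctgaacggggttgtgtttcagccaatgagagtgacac
Igtp (chr11:58199306-58199555, plus strand): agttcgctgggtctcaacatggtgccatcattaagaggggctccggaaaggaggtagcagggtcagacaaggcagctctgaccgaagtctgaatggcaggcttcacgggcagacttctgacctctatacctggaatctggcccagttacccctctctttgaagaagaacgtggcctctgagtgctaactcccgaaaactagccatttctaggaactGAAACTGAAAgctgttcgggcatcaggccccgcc

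The match nearest to a start among these 6 promoters was in Oas1a, with its last base 5 bases before the start (position -5), where a pair of overlapping matches lies. In Igtp the match ended 25 bases before the start (position -25), in Gbp3 at -30, in Gbp2 at -50 and in Oas3 at -66. In Stat2 it lay far upstream, at -222 to -213. Igtp also held a gamma-activated site match at -45 to -37, beside its response element match, and Oas1a held one at -98 to -90.

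No member of the set passed the test in any comparison. In edgeR's quasi-likelihood test, adjusted over all 19412 genes by the Benjamini-Hochberg method at a threshold of 0.05, 0 of 32 members were called in Itga8-Cre against Wild Type, in Myh11-Cre against Wild Type or in Itga8-Cre against Myh11-Cre. The share of all genes called by this rule was 0% in each comparison, so the members did not stand apart from other genes in this respect. The smallest adjusted p of a member was 0.699 (Oas3) in Itga8-Cre against Wild Type, 0.267 (Oas1a) in Myh11-Cre against Wild Type and 0.521 (Mx1) in Itga8-Cre against Myh11-Cre. DESeq2 and limma voom also called 0 members. DESeq2 called 30 genes in all in Itga8-Cre against Wild Type (0.0222% of genes higher and 0.144% lower), 828 in Myh11-Cre against Wild Type (1.35% higher and 3.09% lower) and 19 in Itga8-Cre against Myh11-Cre (0.0748% higher and 0.0345% lower). In that tool the smallest adjusted p of a member was 0.0912, for Oas3 in Itga8-Cre against Wild Type. The values below are therefore given as levels and differences, without a claim that a member changed.

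Set against Wild Type, most members leaned to a higher level in Itga8-Cre. The log2 fold change was above 0 for 25 of 32 members, where 55.9% of all genes were above 0. The median of the members was 0.19 on the log2 scale, against 0.04 over all genes, and the range was -0.20 to 1.14. An unadjusted p under 0.05 was reached by 6 members, all higher, where 3.97% of all genes were higher at that level, and 0 members were lower, where 2.81% of genes were. All 3 Itga8-Cre libraries lay above all 3 Wild Type libraries for 8 members, or 25%, where 5.76% of all genes did so. These 8 were Dhx58, Zbp1, Irf7, Isg15, Oas1a, Oas2, Oas3 and Oasl1. In 0 members did all 3 Itga8-Cre libraries lie below Wild Type, where 5.37% of genes did.

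In Myh11-Cre against Wild Type more of the members than of all genes were also above 0, but their median was smaller than in Itga8-Cre. The log2 fold change was above 0 for 22 of 32 members (68.8%), where 50.9% of all genes were above 0. The median was 0.08, against 0.01 over all genes. An unadjusted p under 0.05 was reached by 1 member, Oas1a, where 6.93% of all genes were higher at that level, and by 0 lower members, where 9.48% of genes were lower. Groups did not overlap for 4 higher members (Irf9, Oas1a, Oasl1 and Rtp4), or 12.5%, where 11.3% of all genes were higher without overlap. They did not overlap for 2 lower members (Stat2 and Parp14), where 14.7% of all genes were lower without overlap. Both comparisons with Wild Type use the same 3 control libraries.

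Set against Myh11-Cre, Itga8-Cre was higher for 22 of 32 members, where 51.3% of all genes were higher, with a median log2 difference of 0.12 against 0.01 over all genes. Unadjusted p under 0.05 was reached by Mx1, Oas3 and Zbp1, 3 members, all higher in Itga8-Cre, where 7.64% of all genes were, and by 0 lower members, where 1.83% of genes were lower. Groups did not overlap for these 3 and for Dhx58, or 12.5% of members, where 9.65% of all genes were higher without overlap, and for 0 lower members, where 3.07% of genes were lower.

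**Figure D1:**
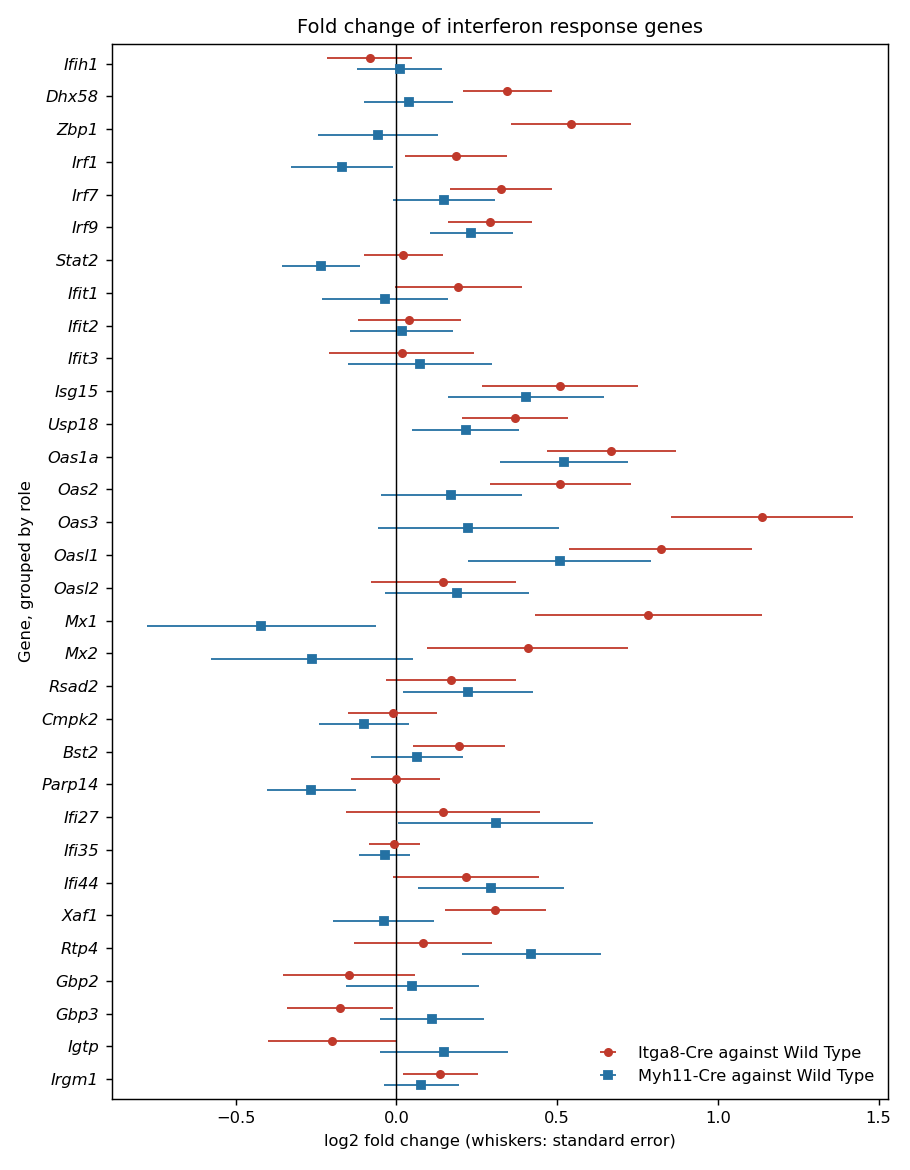
Log2 fold change of the 32 interferon response genes in Itga8-Cre against Wild Type (circles) and Myh11-Cre against Wild Type (squares) from the edgeR fit, with standard errors as whiskers. Oas3 has the highest value, 1.14 in Itga8-Cre against Wild Type, and 25 of the 32 circles lie above 0.

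Levels between genes are compared per kilobase of exon, as CPM (counts scaled by library total and by a TMM factor that allows for composition) divided by merged exon length (CPM per kb). Ifi27 stood far above the rest, with a mean of 326.9 CPM per kb over the 9 libraries. Bst2 followed at 19.0 CPM per kb, then Gbp2 at 17.96, Irf1 at 13.5 and Igtp at 13.4. The lowest members were Oas3 at 0.398, Ifi44 at 0.556, Mx2 at 0.674 and Oasl1 at 0.834 CPM per kb. The fold from the lowest to the highest library had a median of 1.69 over the members, ran from 1.09 for Ifi35 to 4.58 for Mx1, and was 2 or more for 8 members, Zbp1, Isg15, Oas2, Oas3, Oasl1, Mx1, Mx2 and Ifi27. Counts behind single values ran from 52 for Oasl1 to 24487 for Ifi27.

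Active oligoadenylate synthetases make short oligoadenylates that activate RNase L, a nuclease that degrades viral and cellular RNA. The genes of this family lie on chromosome 5, and all 5 in the set had a higher mean in both Cre groups than in Wild Type. The 3 other family genes listed outside the set (Oas1b, Oas1c and Oas1g) were higher than Wild Type in Itga8-Cre on average. In Myh11-Cre, however, Oas1b averaged 2.62 CPM against 3.42 CPM in Wild Type, lower without overlap, and Oas1c 1.84 CPM against 2.501 CPM in Wild Type. Oas3 (ENSMUSG00000032661.9, chromosome 5, 120753098 to 120777661, GRCm38, minus strand) makes the longest protein of the family. It was at 3.20, 5.89 and 3.66 CPM in Itga8-Cre aortae, 1.83, 2.84 and 2.08 CPM in Myh11-Cre aortae, and 1.91, 1.75 and 2.13 CPM in Wild Type aortae. Every Itga8-Cre library lay above every other library, and Itga8-Cre 2 was the highest by a wide margin. The mean was 2.20-fold that of Wild Type, a log2 fold change of 1.14 (SE 0.28), with an edgeR adjusted p of 0.699. Without Itga8-Cre 2 the log2 fold change was 0.82.

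Oas1a (ENSMUSG00000052776.10, chromosome 5, 120896256 to 120907521, minus strand) is an active synthetase of mice. Its levels were 2.54, 2.90 and 2.80 CPM in Itga8-Cre aortae, 2.13, 2.99 and 2.32 CPM in Myh11-Cre aortae, and 1.85, 1.72 and 1.61 CPM in Wild Type aortae. All 6 Cre libraries lay above all 3 Wild Type libraries. The log2 fold change was 0.67 (SE 0.20) in Itga8-Cre and 0.52 (SE 0.20) in Myh11-Cre against Wild Type. It moved little when single libraries were left out or other settings were used, from 0.62 to 0.72, in Itga8-Cre against Wild Type, and ran from 0.36 to 0.62 in Myh11-Cre against Wild Type. Of the 75-base windows of its transcripts, 47.6% are also in Oas1g, so reads of the pair may have been split between them or dropped. Oas1g itself was at 0.504 ± 0.066 CPM in Itga8-Cre aortae, 0.626 ± 0.303 CPM in Myh11-Cre aortae and 0.338 ± 0.133 CPM in Wild Type aortae (SD, n = 3 each).

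Oasl1 (chromosome 5, 114923240 to 114937915, plus strand), which in mice restrains the making of Irf7 protein, was at 2.06, 3.93 and 2.27 CPM in Itga8-Cre aortae, 1.83, 2.33 and 2.47 CPM in Myh11-Cre aortae, and 1.68, 1.38 and 1.61 CPM in Wild Type aortae. Again all 6 Cre libraries lay above Wild Type. The log2 fold change was 0.82 (SE 0.28) in Itga8-Cre and 0.51 (SE 0.28) in Myh11-Cre against Wild Type. Without Itga8-Cre 2, the Itga8-Cre value was 0.47. Oas2 was at 6.18, 9.74 and 6.58 CPM in Itga8-Cre aortae, 4.60, 6.59 and 6.59 CPM in Myh11-Cre aortae, and 4.98, 5.61 and 5.21 CPM in Wild Type aortae. The Itga8-Cre libraries lay above Wild Type, and the Myh11-Cre libraries overlapped with it. Oasl2, a mouse synthetase encoded beside Oasl1, was at 15.10 CPM on average in Itga8-Cre aortae, 15.55 in Myh11-Cre aortae and 13.65 in Wild Type aortae, and all its groups overlapped.

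The sensors detect foreign or misplaced nucleic acid. Zbp1 (ENSMUSG00000027514.14, chromosome 2, 173206612 to 173218923, minus strand), which binds nucleic acid in the Z conformation and can start inflammatory cell death, was at 7.61, 11.56 and 8.08 CPM in Itga8-Cre aortae, 6.35, 6.20 and 5.42 CPM in Myh11-Cre aortae, and 6.87, 5.50 and 6.32 CPM in Wild Type aortae. Every Itga8-Cre library lay above the other 6, which overlapped with each other. The log2 difference was 0.54 (SE 0.19) against Wild Type and 0.60 (SE 0.19) against Myh11-Cre, with edgeR adjusted p of 0.699 and 0.521. Without Itga8-Cre 2 these differences were 0.33 and 0.38.

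Dhx58, which encodes the RNA helicase LGP2, was at 7.46, 7.69 and 7.61 CPM in Itga8-Cre aortae, 5.31, 6.78 and 6.30 CPM in Myh11-Cre aortae, and 5.48, 6.37 and 6.06 CPM in Wild Type aortae. Its Itga8-Cre libraries were nearly equal and all lay above the other 6. Its fold of means was 1.27 against Wild Type, and the log2 fold change without Itga8-Cre 2 was 0.33, close to 0.34 with it (SE 0.14). Ifih1, the RNA sensor MDA5, did not share this order. It averaged 21.8 CPM in Itga8-Cre aortae, 23.3 CPM in Myh11-Cre aortae and 23.1 CPM in Wild Type aortae, and Myh11-Cre 2 was its highest library.

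The transcription factors carry the signal to promoters. All 4 in the set (Irf1, Irf7, Irf9 and Stat2) were highest in Itga8-Cre 2. Irf7, which drives the making of type I interferon, was at 14.18, 18.45 and 13.15 CPM in Itga8-Cre aortae, 11.93, 15.78 and 12.84 CPM in Myh11-Cre aortae, and 12.57, 11.32 and 12.67 CPM in Wild Type aortae. Itga8-Cre lay above Wild Type without overlap, by a narrow margin in Itga8-Cre 3, and Myh11-Cre overlapped with both. Its log2 fold change in Itga8-Cre against Wild Type was 0.32 (SE 0.16), and 0.16 without Itga8-Cre 2.

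Irf9 and Stat2, partners in the complex that type I interferon forms, leaned in opposite directions in Myh11-Cre. Irf9 was at 27.20, 28.03 and 26.02 CPM in Myh11-Cre aortae and 23.70, 21.68 and 23.76 CPM in Wild Type aortae, a log2 fold change of 0.23 (SE 0.13). Stat2 was at 27.91, 30.05 and 23.41 CPM in Myh11-Cre aortae and 30.77, 32.68 and 32.27 CPM in Wild Type aortae, a log2 fold change of -0.23 (SE 0.12), and -0.14 without Myh11-Cre 3. Neither pair of groups overlapped, and the edgeR adjusted p was 0.390 for Irf9 and 0.366 for Stat2. In Itga8-Cre, Irf9 averaged 28.2 CPM and Stat2 32.4 CPM. Irf1, a factor induced by interferon gamma, averaged 60.6 CPM in Itga8-Cre aortae, 47.5 CPM in Myh11-Cre aortae and 53.4 CPM in Wild Type aortae, with overlap between all groups.

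Isg15 encodes a ubiquitin-like protein that is attached to others, and Usp18 the enzyme that removes it and damps the type I receptor. Isg15 (chromosome 4, 156199424 to 156200818, minus strand) was at 2.75, 3.54 and 3.16 CPM in Itga8-Cre aortae, 2.24, 3.69 and 2.81 CPM in Myh11-Cre aortae, and 1.83, 2.22 and 2.58 CPM in Wild Type aortae. The Itga8-Cre libraries lay above Wild Type, although Itga8-Cre 1 and Wild Type 3 were close. The log2 fold change was 0.51 (SE 0.24) in Itga8-Cre and 0.40 (SE 0.24) in Myh11-Cre against Wild Type. Without Myh11-Cre 2, the Myh11-Cre value was 0.20. Usp18 averaged 7.47 CPM in Itga8-Cre aortae, 6.72 CPM in Myh11-Cre aortae and 5.79 CPM in Wild Type aortae, and Wild Type 3 at 7.03 CPM lay within the range of both Cre groups.

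The Ifit genes, a cluster on chromosome 19 whose proteins bind foreign RNA and block its translation, had 3 members with small differences between genotypes. Their log2 fold changes lay between 0.02 and 0.19 in Itga8-Cre aortae and between -0.04 and 0.07 in Myh11-Cre against Wild Type. The single high values were mostly in Itga8-Cre 2, where Ifit1 was at 13.14 CPM and Ifit3 at 15.55 CPM. Ifit3 shares 41.1% of its 75-base windows with Ifit3b, so its counts are uncertain in the same way as those of Oas1a. Of the 3 listed Ifit genes outside the set, Ifit1bl1 differed more, at 4.40, 10.4 and 5.96 CPM in Itga8-Cre aortae, 3.28, 3.45 and 5.03 CPM in Myh11-Cre aortae, and 3.33, 2.49 and 4.61 CPM in Wild Type aortae, with overlap and again highest in Itga8-Cre 2. Ifit2 had its highest value in Wild Type 1, at 19.12 CPM, and its lowest in Wild Type 2, at 12.93 CPM.

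Among the antiviral effectors, Mx1 varied most. Mx1 (ENSMUSG00000000386.15, chromosome 16, 97447035 to 97462907, minus strand) encodes a GTPase that blocks influenza virus in the nucleus, and C57BL/6J, like many inbred strains, carries a defective allele of it. Its level was 4.09, 8.80 and 5.66 CPM in Itga8-Cre aortae, 2.44, 1.92 and 3.70 CPM in Myh11-Cre aortae, and 4.52, 2.64 and 3.62 CPM in Wild Type aortae. All 3 Itga8-Cre libraries lay above all 3 Myh11-Cre libraries, and Wild Type overlapped with both. The log2 difference of Itga8-Cre against Myh11-Cre was 1.20 (SE 0.36), with an edgeR adjusted p of 0.521, and 0.86 without Itga8-Cre 2. Against Wild Type it was 0.78 (SE 0.35) in Itga8-Cre and -0.42 (SE 0.36) in Myh11-Cre. The Itga8-Cre value was 0.44 without Itga8-Cre 2, and the Myh11-Cre value was -0.22 without Myh11-Cre 2 or Wild Type 1 and -0.72 without Myh11-Cre 3. Mx2, its neighbour, was at 4.65 CPM in Itga8-Cre 2 and between 1.68 and 2.52 CPM in the other 8 libraries, so its log2 fold change in Itga8-Cre against Wild Type was 0.41 with that library and -0.03 without it.

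Rsad2 and Cmpk2, neighbours on chromosome 12, encode viperin, which makes a chain-terminating nucleotide, and a mitochondrial nucleotide kinase. Rsad2 averaged 21.5 CPM in Itga8-Cre aortae, 22.3 CPM in Myh11-Cre aortae and 19.1 CPM in Wild Type aortae, and Cmpk2 10.8, 10.2 and 10.9 CPM in the same groups, all with overlap. Bst2, or tetherin, which holds budding virions at the cell surface, averaged 18.5 CPM in Itga8-Cre aortae, 16.9 CPM in Myh11-Cre aortae and 16.1 CPM in Wild Type aortae. Parp14, an ADP-ribosyltransferase, was at 65.5, 71.2 and 63.7 CPM in Myh11-Cre aortae and 79.2, 74.0 and 87.6 CPM in Wild Type aortae. These groups did not overlap, with a log2 fold change of -0.27 (SE 0.14) and an edgeR adjusted p of 0.367. In Itga8-Cre aortae, Parp14 was at 72.5, 97.7 and 70.1 CPM, with a log2 fold change against Wild Type of -0.002, and -0.18 without Itga8-Cre 2.

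**Figure D2:**
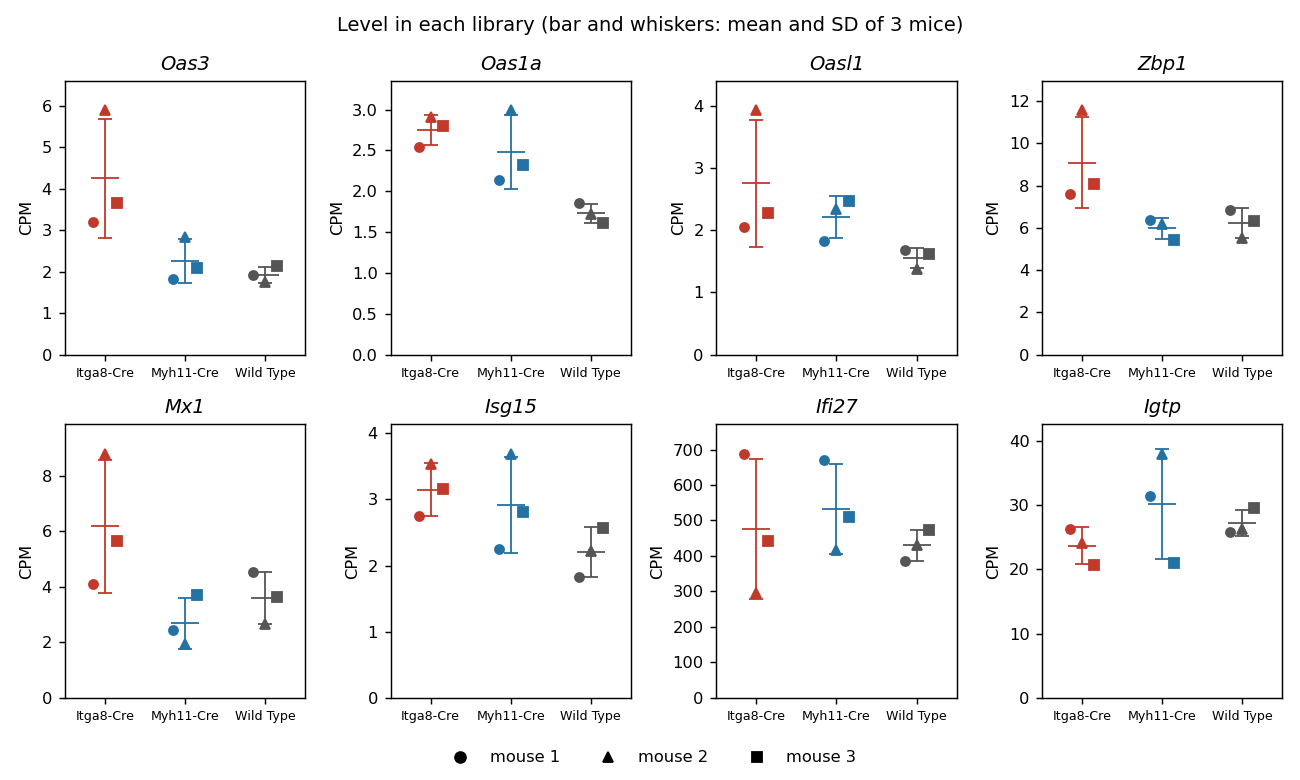
Level of 8 interferon response genes in CPM in each library, by genotype, with the mouse number as symbol and the mean and SD of 3 mice as bar and whiskers. Itga8-Cre mouse 2 is the highest library for Oas3 (5.89 CPM), Zbp1 (11.56 CPM) and Mx1 (8.80 CPM) and the lowest for Ifi27 (296.2 CPM), and Igtp is highest in Myh11-Cre mouse 2 (38.0 CPM).

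Ifi27 (ENSMUSG00000064215.13, chromosome 12, 103434211 to 103440239, plus strand), a small membrane protein, differed from most members in its high and low libraries. It was at 688.8, 296.2 and 442.7 CPM in Itga8-Cre aortae, 670.1, 417.0 and 510.8 CPM in Myh11-Cre aortae, and 384.7, 431.6 and 473.7 CPM in Wild Type aortae. The highest libraries were Itga8-Cre 1 and Myh11-Cre 1, and the lowest was Itga8-Cre 2, where most other members were highest. Rsad2 had the same pair of highest libraries. The summed level of 4 brown fat markers (Ucp1, Cidea, Elovl3 and Cox7a1) was also highest in Itga8-Cre 1 (6628 CPM) and Myh11-Cre 1 (6234 CPM) and lowest in Itga8-Cre 2 (1976 CPM), and its part in the level of Ifi27 was not tested. In Itga8-Cre against Wild Type the log2 fold change of Ifi27 was 0.15 (SE 0.30), and -0.22 without Itga8-Cre 1.

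Of the other small interferon-induced genes, Ifi35 was nearly constant, between 19.4 and 21.2 CPM in the 9 libraries. Rtp4, a chaperone of receptors, was at 6.73, 10.36 and 6.82 CPM in Myh11-Cre aortae and 6.29, 5.45 and 6.14 CPM in Wild Type aortae, without overlap, and averaged 6.31 CPM in Itga8-Cre aortae. It shares 10.5% of its windows with the gene model Gm45338. Ifi44 was highest in Myh11-Cre 2 (4.81 CPM) and Xaf1, which binds an inhibitor of cell death, in Itga8-Cre 2 (10.46 CPM), and the groups of both overlapped.

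The GTPases best known as targets of interferon gamma, which take part in the defence against intracellular pathogens, have 4 members in the set. Gbp2, Gbp3 and Igtp were highest in Myh11-Cre 2 and had means below Wild Type in Itga8-Cre. Gbp2 (ENSMUSG00000028270.12, chromosome 3, 142620602 to 142638008, plus strand) was at 46.7, 46.33 and 31.97 CPM in Itga8-Cre aortae, 46.0, 60.8 and 36.6 CPM in Myh11-Cre aortae, and 48.5, 41.4 and 48.5 CPM in Wild Type aortae. Igtp was at 26.3, 24.1 and 20.6 CPM in Itga8-Cre aortae, 31.4, 38.0 and 21.0 CPM in Myh11-Cre aortae, and 25.8, 26.4 and 29.5 CPM in Wild Type aortae. For both genes the groups overlapped, Myh11-Cre had the widest range, and Itga8-Cre 3 was the lowest library. Gbp3 was at 34.3, 27.1 and 21.4 CPM in Itga8-Cre aortae, 34.0, 36.3 and 30.6 CPM in Myh11-Cre aortae, and 30.2, 29.4 and 33.9 CPM in Wild Type aortae. Log2 fold changes of these 3 genes against Wild Type lay between -0.20 and -0.15 in Itga8-Cre aortae and between 0.05 and 0.15 in Myh11-Cre aortae. Without Myh11-Cre 2, the Myh11-Cre values of Gbp2 and Igtp were -0.16 and -0.05, and that of Gbp3 was 0.06. Without Wild Type 2, that of Gbp2 was -0.01. Without Itga8-Cre 3, the Itga8-Cre value of Gbp2 was 0.003 and that of Gbp3 -0.03. The 8 other Gbp genes listed did not share one direction: 3 were higher and 5 lower than Wild Type in Itga8-Cre, and likewise in Myh11-Cre. In Itga8-Cre, Gbp11 was lower without overlap (2.27 CPM against 3.89 CPM in Wild Type), where 5.37% of all genes were. In Myh11-Cre, Gbp4, Gbp5, Gbp9 and Gbp11 were lower without overlap, where 14.7% of all genes were. Irgm1, of the same class as Igtp, was highest in Itga8-Cre 2 (30.6 CPM), closely followed by Myh11-Cre 2 (30.1 CPM). Igtp overlaps Irgm2 and shares 7.8% of its windows with it.

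The highest levels lay mostly in a pair of libraries. Itga8-Cre 2 held the highest level of 19 of 32 members (59.4%), where it held that of 18.6% of all genes. Myh11-Cre 2 held the highest level of 9 members (28.1%), against 9.58% of all genes. The 4 members highest elsewhere were Ifit2, Usp18, Rsad2 and Ifi27. Relative to each gene's mean over the 9 libraries, the median member stood 0.27 higher on the log2 scale in Itga8-Cre 2, where the median of all genes stood 0.06 higher. It stood 0.12 higher in Myh11-Cre 2 and 0.14 lower (a deviation of -0.14) in Wild Type 2. Of the 32 members, 28 stood above their own mean in Itga8-Cre 2 and 23 did so in Myh11-Cre 2, while in Wild Type 2 only 5 did.

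By role, the deviations in these libraries were compared without a test. The mean deviation of the 5 oligoadenylate synthetases was 0.67 in Itga8-Cre 2 and 0.27 in Myh11-Cre 2. That of the 6 Mx GTPases and other antiviral effectors was 0.49 in Itga8-Cre 2 and -0.20 in Myh11-Cre 2. That of the 4 gamma-induced GTPases was near 0 in Itga8-Cre 2 (-0.004) and 0.36 in Myh11-Cre 2. Other roles were above their mean in both, with 0.32 in Itga8-Cre 2 and 0.28 in Myh11-Cre 2 for Isg15 and Usp18, and 0.39 in Itga8-Cre 2 and 0.18 in Myh11-Cre 2 for the Ifit genes. In Itga8-Cre against Wild Type, the median log2 fold change was 0.14 over 13 members with the response element letters in a matched promoter. It was 0.20 over 10 members whose matched promoters lacked these letters. Members without a matched promoter, among them Zbp1, Dhx58, Oas2 and Mx1, are in neither group, and the part of the motif was not tested.

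**Figure D3:**
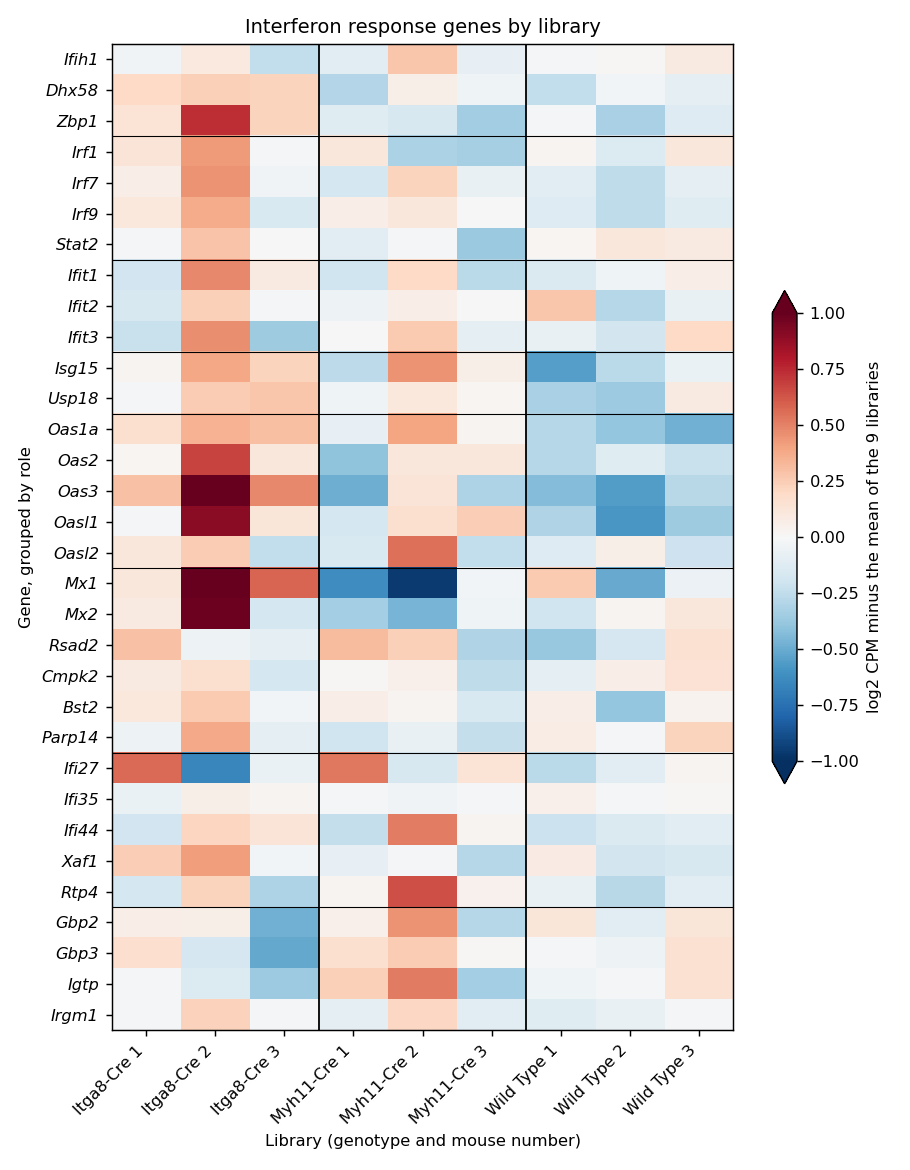
Log2 CPM of each interferon response gene minus its mean over the 9 libraries, with genes grouped by role and libraries by genotype; red is above and blue below the mean. The column of Itga8-Cre 2 is red for 28 of the 32 genes, and Gbp2, Gbp3 and Igtp are highest in Myh11-Cre 2.

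**Figure D4:**
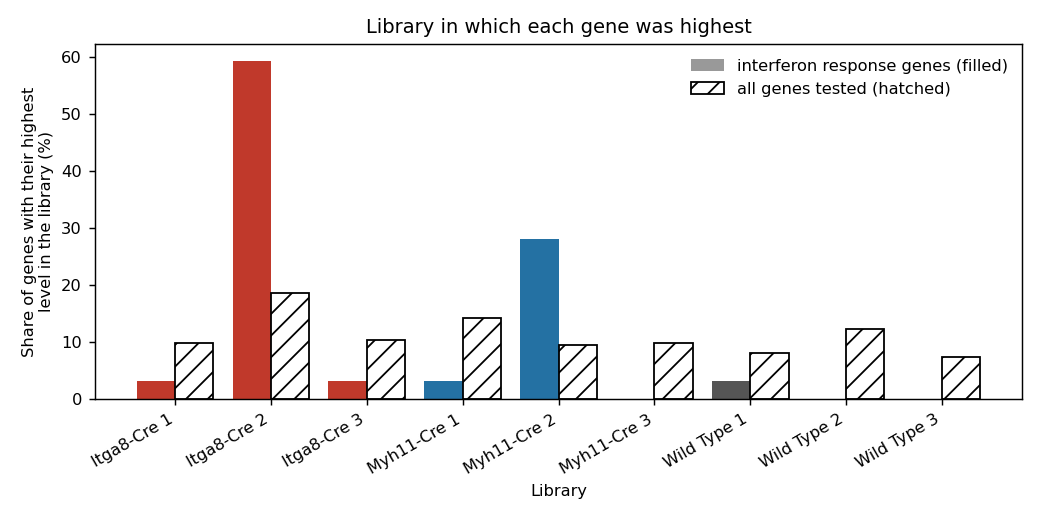
Percentage of genes that had their highest level in each library, for the 32 interferon response genes (filled bars, coloured by genotype) and for all 19412 genes tested (hatched bars). Itga8-Cre 2 holds 59.4% of the interferon response genes against 18.6% of all genes, and Myh11-Cre 2 holds 28.1% against 9.58%.

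Several of the counts above changed when a single library was left out. Without Itga8-Cre 2, Itga8-Cre was above Wild Type for 19 of 32 members in place of 25, where 52% of all genes were. The median log2 fold change was 0.08 in place of 0.19. In this setting 2 members in place of 6 were higher at an unadjusted p under 0.05, where 4.22% of all genes were. Without Wild Type 2, 3 members were higher in Itga8-Cre at that level, where 1.67% of all genes were. Without Myh11-Cre 2, Myh11-Cre was above Wild Type for 14 of 32 members, where 51% of all genes were, and below it for 18. The median turned to -0.03. In Itga8-Cre against Myh11-Cre, the median was 0.005 without Itga8-Cre 2 and 0.21 without Myh11-Cre 2. The latter left 28 members higher in Itga8-Cre, where 50.6% of all genes were. With both of these libraries left out together, a setting added after the data were seen, the medians were 0.08 in Itga8-Cre against Wild Type, -0.04 in Myh11-Cre against Wild Type and 0.11 in Itga8-Cre against Myh11-Cre.

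Markers of leukocytes also differed between these libraries. The summed level of 7 macrophage and monocyte markers was 777, 938 and 460 CPM in Itga8-Cre aortae, 293, 889 and 498 CPM in Myh11-Cre aortae, and 370, 290 and 409 CPM in Wild Type aortae. The same libraries 2 were highest within their Cre genotypes, Wild Type 2 was lowest of all, and Itga8-Cre lay above Wild Type without overlap. Of these 7 markers, 6 had a higher mean in Itga8-Cre than in Wild Type. In 4 of them the groups did not overlap, where 5.76% of all genes were higher without overlap. Of the 7, 0 passed in edgeR or DESeq2. Lyz2 was the largest part of the sum, at 529.6 CPM on average in Itga8-Cre aortae and 208.8 CPM in Wild Type aortae. Mrc1 averaged 51.1 CPM and 51.63 CPM in these groups. None of the 7 markers was at 0 in a library. The 5 B cell markers summed to 345 CPM in Itga8-Cre 2, to 78.7 CPM in Myh11-Cre 2, the lowest library, and to at most 226 CPM elsewhere. Ptprc, the antigen CD45 that all leukocytes carry and that is not in the sum of 7, was at 239, 488 and 455 CPM in Itga8-Cre aortae, 282, 217 and 219 CPM in Myh11-Cre aortae, and 240, 206 and 273 CPM in Wild Type aortae. Markers of immature thymocytes reached 621 CPM in Itga8-Cre 3 but only 1.51 CPM in Itga8-Cre 1 and 2.13 CPM in Itga8-Cre 2. The part of these cells in the levels of the interferon response genes was not tested. In whole tissue, fewer cells of a type and less RNA per cell cannot be told apart.

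Other tissues varied as well. Skeletal muscle markers summed to 81.2 CPM in the lowest library, Myh11-Cre 1, and 12000 CPM in the highest, Myh11-Cre 3. The 8 smooth muscle markers were present in every library. Their sums were 1259, 1718 and 1678 CPM in Itga8-Cre aortae and 1020, 2902 and 3088 CPM in Myh11-Cre aortae. In Wild Type aortae the sums were 3301, 2090 and 1986 CPM. Itga8-Cre lay below Wild Type without overlap in this sum. It did so in 4 of the 8 markers (Acta2, Myh11, Smtn and Lmod1), where 5.37% of all genes did. Des went the other way, at 232.1 CPM in Itga8-Cre aortae against 143.6 CPM in Wild Type aortae, with overlap. In Myh11-Cre aortae Des averaged 486.2 CPM, and DESeq2 called it higher than Wild Type (adjusted p = 0.049). In edgeR 0 of the 8 passed. The part of the smooth muscle difference in the interferon response genes was not tested. Total counts were 31419238 to 42497543 per library. Itga8, the gene after which the Itga8-Cre line is named, averaged 64.5 ± 11.3 CPM in Itga8-Cre aortae, 224 ± 131 CPM in Myh11-Cre aortae and 273 ± 177 CPM in Wild Type aortae, and Myh11 averaged 670 ± 67.0, 873 ± 359 and 1145 ± 201 CPM in the same groups (SD, n = 3 each).

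Of the interferons themselves almost nothing was seen. Of 21 ligand genes, 17 had 0 counts in all 9 libraries, among them Ifnb1, and a count of 0 allows a level of up to 0.0729 to 0.0885 CPM per library (3 counts, counting error only). Ifng, the gene of interferon gamma, had 2, 2 and 3 counts in Itga8-Cre, 5, 5 and 1 in Myh11-Cre aortae, and 0, 5 and 2 in Wild Type aortae. Ifna7 had 1 count in Myh11-Cre 2, Ifnab 1 and Ifnl3 2 in Itga8-Cre 3. At this depth no difference in a ligand was detectable.

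The 6 receptor genes had similar sums in the 3 genotypes. The sums were 278 to 293 CPM in Itga8-Cre aortae, 271 to 300 CPM in Myh11-Cre aortae and 261 to 280 CPM in Wild Type aortae. Log2 fold changes against Wild Type ran from -0.04 to 0.70 in Itga8-Cre aortae and from -0.16 to 0.27 in Myh11-Cre aortae. Ifnlr1, of the lambda receptor, had the highest value in Itga8-Cre aortae. It averaged 1.56 CPM there against 0.958 CPM in Wild Type aortae, without overlap, where 5.76% of all genes were higher without overlap. Ifnar1 averaged 61.8 CPM in Myh11-Cre aortae against 69.1 CPM in Wild Type aortae, lower without overlap, where 14.7% of all genes were. None of the 6 passed the edgeR test. None of the kinase and inhibitor genes listed passed either. The phosphatase gene Ptpn6, which leukocytes express, was at 43.2, 85.2 and 67.1 CPM in Itga8-Cre aortae and 38.0, 28.3 and 47.0 CPM in Wild Type aortae. Cish, an inhibitor of cytokine signalling, was at 11.9, 14.4 and 24.8 CPM in Itga8-Cre aortae and 61.1, 31.1 and 23.8 CPM in Wild Type aortae, and in both genes the groups overlapped.

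Among 23 tested sensors and adaptors outside the set, 18 were higher in Itga8-Cre than in Wild Type (78.3%, against 55.9% of all genes), 5 of them (21.7%, against 3.97% of all genes) with an unadjusted p under 0.05. In Myh11-Cre against Wild Type, 8 were higher (34.8%, against 50.9% of all genes) and 15 lower. In all, 0 passed the edgeR test in any comparison. Irf5, a factor downstream of endosomal receptors, was at 21.5, 30.8 and 20.9 CPM in Itga8-Cre aortae and 15.96, 12.9 and 16.8 CPM in Wild Type aortae, without overlap. Unc93b1, which carries those receptors to the endosome, was at 62.2, 82.8 and 57.0 CPM in Itga8-Cre aortae and 47.4, 42.4 and 53.4 CPM in Wild Type aortae, also without overlap. Tlr7, an endosomal receptor for single-stranded RNA, had another order: 7.92, 12.25 and 9.32 CPM in Itga8-Cre aortae, 12.53, 18.62 and 14.30 CPM in Myh11-Cre aortae, and 6.72, 5.39 and 6.61 CPM in Wild Type aortae. The 3 genotypes did not overlap, and the log2 fold change of Tlr7 in Myh11-Cre against Wild Type was 1.28 (SE 0.21), with an adjusted p of 0.218 in edgeR and 2.98e-05 in DESeq2, which called it.

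A wider list of 85 other interferon-stimulated genes, of which 82 were tested, leaned to higher levels in Itga8-Cre, as the members did, but not in Myh11-Cre. Against Wild Type, 61 of 82 were higher in Itga8-Cre (74.4%, against 55.9% of all genes), with a median of 0.22. In Myh11-Cre 34 of 82 were higher (41.5%, against 50.9% of all genes), with a median of -0.06. The list summed to 2703, 3190 and 2580 CPM in Itga8-Cre aortae and 2519, 2513 and 2405 CPM in Myh11-Cre aortae. In Wild Type aortae it summed to 2534, 2371 and 2688 CPM, so Itga8-Cre overlapped with Wild Type in this sum. The dependence of the list on Itga8-Cre 2 was not tested. Against Myh11-Cre, 54 of 82 were higher in Itga8-Cre (65.9%, against 51.3% of all genes). An unadjusted p under 0.05 was reached by 27 of the 82 higher in Itga8-Cre (32.9%, against 7.64% of all genes). At that level 2 were lower, where 1.83% of all genes were. None passed the edgeR test in any comparison. DESeq2 called 3 of them, all in Myh11-Cre against Wild Type, where it called 1.35% of all genes higher and 3.09% lower. Nlrc5 was lower (log2 fold change -0.59, DESeq2 adjusted p = 0.0338). Ifitm1, an antiviral membrane protein, was higher (1.98, DESeq2 adjusted p = 0.0419), at 2.52, 8.36 and 9.43 CPM in Myh11-Cre aortae and 1.88, 0.978 and 2.37 CPM in Wild Type aortae. It averaged 4.41 CPM in Itga8-Cre aortae, with overlap with Wild Type. Ifi205 was also higher (0.58, DESeq2 adjusted p = 0.0483), at 7.66, 10.5 and 8.49 CPM in Myh11-Cre aortae and 6.20, 6.14 and 5.73 CPM in Wild Type aortae. In Itga8-Cre aortae Ifi205 averaged 7.59 CPM, above Wild Type without overlap. Slfn2, a schlafen gene of lymphocytes and myeloid cells, was at 25.4, 42.0 and 33.5 CPM in Itga8-Cre aortae, 21.4, 23.0 and 21.8 CPM in Myh11-Cre aortae, and 21.2, 16.4 and 23.0 CPM in Wild Type aortae. Ifi203, of the family of interferon-inducible DNA-binding proteins, was at 37.9, 62.4 and 53.5 CPM in Itga8-Cre aortae and 31.5, 29.3 and 31.9 CPM in Myh11-Cre aortae. Nlrc5, which drives the genes of antigen presentation, was at 58.7, 81.8 and 53.1 CPM in Itga8-Cre aortae, 46.6, 35.4 and 45.2 CPM in Myh11-Cre aortae, and 66.1, 64.4 and 63.1 CPM in Wild Type aortae. The highest library of Slfn2, Ifi203 and Nlrc5 was again Itga8-Cre 2, and for Nlrc5 every Myh11-Cre library lay below every other.

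**Figure D5:**
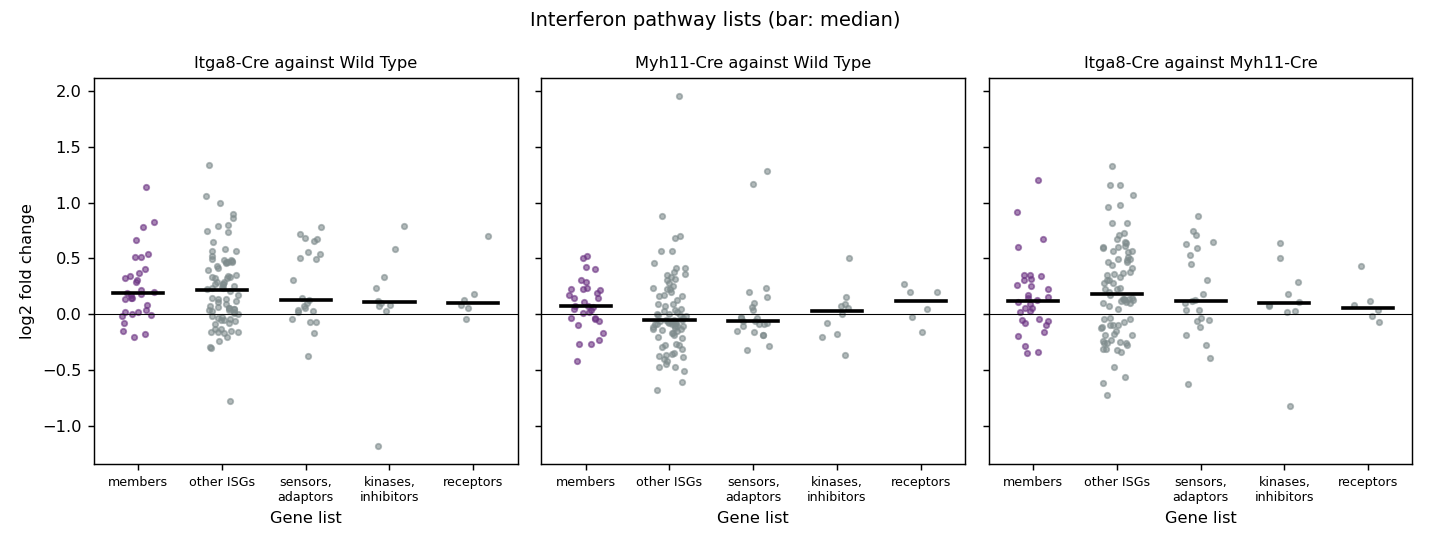
Log2 fold change of each tested gene in 5 interferon lists (the 32 members, other interferon-stimulated genes (ISGs), nucleic acid sensors and adaptors, kinases and inhibitors, receptors) in the 3 comparisons, with the median of each list as a bar. In Itga8-Cre against Wild Type the medians of the members and of the other interferon-stimulated genes are 0.19 and 0.22, and in Myh11-Cre against Wild Type they are 0.08 and -0.06.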

How the data were processed

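Polyadenylated RNA of 9 whole aortae was sequenced as single-end 75-base reads from a stranded kit, per the labels' protocols. The deposited counts (whole reads per gene) entered all tests. The deposited signal values, these counts over a size factor for each library, served as a check alone. Per the submitters' processing notes, the build was GRCm38.p6 and the tools included Salmon 0.13.1, DESeq2, STAR 2.7.0f, fastp 0.20.0 and featureCounts from Subread 1.6.4. The sources used here do not give the annotation release or whether counting used strand, which makes overlapping genes uncertain. Positions are from GENCODE, GRCm38.

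Counts were tested in R 4.3.3 with edgeR 4.0.16 (filterByExpr, TMM, robust quasi-likelihood fit of the 3 group means to all 9 libraries, Benjamini-Hochberg adjustment over 19412 genes). The common biological coefficient of variation was 0.294. CPM were computed on totals (31419238 to 42497543 counts) multiplied by TMM factors of 0.860 to 1.15. DESeq2 1.42.0, limma 3.58.1 (voom), other normalizations, no filter, 2-group fits, mouse number as block and leaving out each library were alternatives. The fit was tested on simulated data. No libraries were duplicates. Each library is a mouse, per the labels. The named genes were all members, the targeted genes and up to 4 genes per list with the smallest p, of which some are described. A gene of the signalling list is not reported here. The members and lists were chosen with earlier results of these data known.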

Additional observations from a re-analysis of the deposited data

How the results depend on the processing

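Under the 17 alternatives of each comparison, the number of members called stayed at 0. The median log2 fold change of the members was 0.19 in Itga8-Cre against Wild Type, 0.08 in Myh11-Cre against Wild Type and 0.12 in Itga8-Cre against Myh11-Cre. It ran from 0.077 to 0.246, from -0.026 to 0.142 and from 0.005 to 0.212 with single libraries left out, and from 0.078 to 0.177, from -0.041 to 0.092 and from 0.074 to 0.147 under the other settings. The turn of sign in Myh11-Cre against Wild Type came without Myh11-Cre 2, alone or with Itga8-Cre 2. Over all genes, DESeq2 called 30, 828 and 19 genes, where edgeR called 0, and the cause was not tested. At an unadjusted p under 0.05 edgeR had 1316, 3187 and 1840 genes. Itga8 in Itga8-Cre against Wild Type passed in DESeq2 only (log2 fold change -2.11, adjusted p = 0.0482), and its adjusted p ran up to 0.999 in the other settings. With the replicate block, the members' medians were 0.174, 0.067 and 0.13, with 0 members called and 0, 1 and 0 genes called in all. The members higher at an unadjusted p under 0.05 then numbered 8, 1 and 5, in place of 6, 1 and 3. Of all genes, 4.06%, 9.82% and 6.41% were higher at that level with the block. Correlations of residuals ran from 0.033 to 0.396 in the 9 same-numbered pairs, 5 of them over 0.1, against -0.355 to 0.24 in other pairs. The labels do not say what the numbers share, and whether they mark a common factor was not tested. Upper quartile factors gave 4, 1 and 6 members higher at an unadjusted p under 0.05, where 3.18%, 5.54% and 8.45% of all genes were. The depth limits the ligands, with 5 counts at most in a library, more than the members.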
